A study of Mus musculus with 72 samples.

Results

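Soleus muscle of mice lacking Bmal1 in muscle fibres was compared with soleus of control mice at Zeitgeber time 12 (ZT12), the hour at which the lights went off. The comparison rests on 6 of the 72 arrays of the study, chosen by the muscle, genotype and time in the sample labels, and covers all 20239 genes that the array annotation names. The knockout group (mKO) held 3 male C57BL/6 mice aged 5 months, in which floxed Bmal1 is inactivated by a Cre recombinase driven by the Mlc1f promoter, that of a fast myosin light chain gene. The control group (Ctrl) held 3 male littermates of the same age without Cre, and the labels do not say which Bmal1 alleles they carried. All animals lived in 12 h of light and 12 h of darkness with lights on at ZT0, and ate chow at will. Each array carried the RNA of 1 muscle of 1 animal on a whole-transcript platform. As only mKO mice carried Cre, the loss of Bmal1 and an effect of Cre as such cannot be told apart. The promoter is one of fast fibres and the soleus is a mostly slow muscle, so cells in which Bmal1 was left intact may be part of each sample. In such bulk samples, fewer cells of a type and less RNA per cell cannot be told apart either.

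BMAL1, encoded by Arntl, pairs with CLOCK or NPAS2 and switches on genes that carry E-boxes, among them the period and cryptochrome genes, the REV-ERB genes Nr1d1 and Nr1d2, and output factors such as Dbp and Tef. The PER and CRY proteins then repress this pair. The REV-ERB proteins and their opponents, the ROR proteins, act on Arntl, Clock, Npas2 and Nfil3 through another element, and DBP, TEF, HLF and NFIL3 compete at D-boxes. In muscle of nocturnal mice, this clock is known to set the daily course of genes of glucose and lipid use around the onset of activity.

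The arrays looked alike. Their medians ran from 6.7 to 6.77 on the log2 scale of the deposited signals, any pair of the 6 correlated with r between 0.989 and 0.995 across genes, and the median SD within a group was 0.12 in mKO and 0.13 in Ctrl. Myh7, the slow myosin heavy chain, was far above the array medians, with 13.24, 13.21 and 13.16 in mKO and 13.30, 13.26 and 13.30 in Ctrl. Its level was not compared with tibialis anterior here. The animals carried 2 series of identification numbers whose meaning the labels do not give. BM2 comprised 1 mKO and 2 Ctrl animals, and BM2* comprised 2 mKO and 1 Ctrl animal. mKO replicates B and C stood apart from the other 4 arrays in Myh4, the myosin heavy chain of the fastest fibres, whose log2 signal was 8.20, 12.70 and 12.33 in mKO replicates A, B and C and 9.57, 8.24 and 9.42 in Ctrl replicates A, B and C. The 30 soleus arrays of the other times ran from 7.67 to 12.46 with a median of 11.86, and 12 of them were above 12. mKO replicate C thus lay within that range and mKO replicate B above it. mKO replicate A and every Ctrl array, from 8.20 to 9.57, lay within it as well, but farther from that median and below it. All 36 arrays of tibialis anterior, a fast muscle, were at 13.46 or above. The counts of called genes at ZT12 and the calls of genes named by the naming rule given below are also given without mKO replicates B and C.

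At ZT12, 152 genes differed between mKO and Ctrl soleus at an adjusted p under 0.05, and these are the genes named as called below (limma, with Benjamini-Hochberg adjustment over all genes). They make up 0.751% of the genes tested, the share against which the counts of called genes in the lists below are to be read. At that share, most short lists would hold no called gene. The 152 genes were split evenly, with 76 higher and 76 lower in mKO (0.376% each). The largest change was in Cdkn1a, the gene of p21, an inhibitor of the cell cycle, and the largest fall was in Mylk4, a myosin light chain kinase. The median size of a called difference was 0.61 log2 units, against 0.08 over all genes, and 8 higher and 5 lower genes differed by more than 2-fold. In 150 of the 152, the mKO and Ctrl arrays did not overlap, where 10.8% of all genes showed such a gap, and Dbp and Riok2 were the exceptions. All 152 had the same sign within BM2 and within BM2* animals, a property of 51.9% of all genes, but these are the arrays on which the genes were called. When mKO replicate A alone was set against the 3 Ctrl arrays, all 152 had the same sign. This was fixed in advance for the 150 genes without overlap. Without mKO replicate A, 48 genes were called higher and 47 lower, and without mKO replicate C or Ctrl replicate C, 44 genes were called lower.

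**Figure D1:**
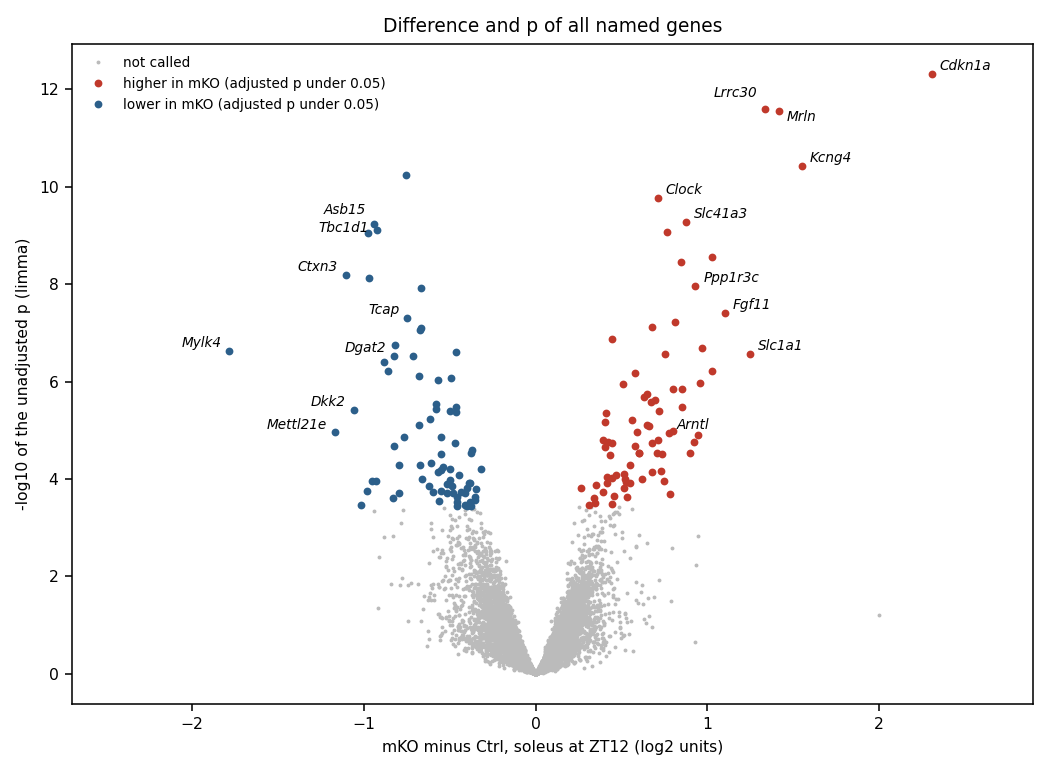
Each point is 1 of 20239 genes, with the difference of mKO minus Ctrl in soleus at ZT12 on the horizontal axis (log2 units) and the unadjusted p of limma on the vertical axis (-log10). The 76 genes called higher (red) and the 76 called lower (blue) lie at sizes of 0.26 and above, with Cdkn1a at 2.31 and Mylk4 at -1.79 farthest out among them, and the grey point at 2.001 is Myh4, which was not called.

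Among the activators of the clock, Arntl, Clock and Npas2 were higher in mKO. Arntl, the targeted gene, had 7.62, 7.11 and 7.27 in mKO and 6.55, 6.57 and 6.55 in Ctrl. All 3 mKO arrays lay above all Ctrl arrays, by 0.78 ± 0.15 log2 units (SE, n = 3 per group, limma adjusted p = 0.00352). The sources used here do not place the probes within the gene or outside its floxed part, so the level of this transcript does not check the deletion. Clock, the partner of BMAL1, had 9.61, 9.45 and 9.61 in mKO and 8.90, 8.81 and 8.82 in Ctrl, a rise of 0.71 ± 0.07 (adjusted p = 5.62e-07). Npas2, which can replace CLOCK, had 7.39, 6.79 and 7.07 in mKO and 6.35, 6.14 and 6.36 in Ctrl, a rise of 0.80 ± 0.15 (adjusted p = 0.00335). In each of these genes replicate B was the lowest mKO array. The ROR genes were not called. Rora had 9.77, 9.84 and 9.62 in mKO and 10.01, 9.96 and 10.02 in Ctrl, so that all mKO arrays lay below all Ctrl arrays (-0.25, adjusted p = 0.245), and Rorb differed by 0.03 (adjusted p = 0.994). Of the 5 measured members of the activator list, 3 were thus called higher and none lower, with a median difference of 0.71, where the median over all genes was 0.0033. Without mKO replicate A, the calls of Arntl (0.63, adjusted p = 0.0686) and Npas2 (0.64, adjusted p = 0.0671) were lost.

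The repressors of the clock were lower in mKO where they were called. Of 10 measured genes, 4 were called lower and none higher, the median difference was -0.415, and in 8 all mKO arrays lay below all Ctrl arrays, where 5.37% of all genes did. Ciart, a repressor of CLOCK and BMAL1, had 6.83, 7.31 and 7.76 in mKO and 8.04, 8.15 and 8.76 in Ctrl, a difference of -1.02 ± 0.25 (2.03-fold, adjusted p = 0.0461). Its arrays spread widely in both groups. Nr1d2, which encodes REV-ERB beta, had 10.46, 10.90 and 10.63 in mKO and 11.22, 11.27 and 11.35 in Ctrl, a difference of -0.62 ± 0.11 (adjusted p = 0.00204). Bhlhe41, which encodes the E-box repressor DEC2, had 8.07, 7.68 and 7.82 in mKO and 8.98, 8.63 and 8.76 in Ctrl, a difference of -0.93 ± 0.21 (adjusted p = 0.0203). Per3, a period gene, had 8.51, 8.67 and 8.55 in mKO and 9.08, 9.16 and 9.29 in Ctrl, a difference of -0.60 ± 0.14 (adjusted p = 0.0289). The other members were not called, among them Per1 (-0.33, adjusted p = 0.856), Per2 (-0.35, adjusted p = 0.476), Cry2 (-0.32, adjusted p = 0.524), Nr1d1 (-0.48, adjusted p = 0.663) and Bhlhe40 (-0.34, adjusted p = 0.82). Cry1 alone of the list was above 0, at 0.08 (adjusted p = 0.964).

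Most of these calls were lost when 1 array was left out. In some cases the difference did not shrink, and such fits also hold fewer arrays in a group. The Ciart call was lost without mKO replicate A (-0.78, adjusted p = 0.361), mKO replicate B (-1.02, adjusted p = 0.124), Ctrl replicate B (-1.10, adjusted p = 0.0867) and Ctrl replicate C (-0.80, adjusted p = 0.365). The Bhlhe41 call was lost without mKO replicate B (-0.84, adjusted p = 0.122), mKO replicate C (-0.91, adjusted p = 0.0859), Ctrl replicate A (-0.84, adjusted p = 0.113) and Ctrl replicate C (-0.95, adjusted p = 0.0734). The Per3 call was lost without mKO replicate A (-0.56, adjusted p = 0.157), mKO replicate C (-0.59, adjusted p = 0.116), Ctrl replicate B (-0.61, adjusted p = 0.102) and Ctrl replicate C (-0.54, adjusted p = 0.183). Nr1d2 stayed past the threshold whichever 1 array was left out of the 36-array fit. When the fit held only the 6 arrays of ZT12, which leaves the differences as they are and estimates the spread from fewer arrays, the calls of Clock (adjusted p = 0.0291) and Bhlhe41 (adjusted p = 0.0373) held. Those of Arntl (adjusted p = 0.0804), Npas2 (adjusted p = 0.13), Nr1d2 (adjusted p = 0.15), Per3 (adjusted p = 0.0778) and Ciart (adjusted p = 0.327) were lost. With mKO replicate A alone against Ctrl, the calls of Arntl (1.06, adjusted p = 0.00891), Clock (0.77, adjusted p = 0.000226), Npas2 (1.11, adjusted p = 0.00515), Nr1d2 (-0.82, adjusted p = 0.00549) and Ciart (-1.49, adjusted p = 0.0478) held, and those of Bhlhe41 (-0.71, adjusted p = 0.717) and Per3 (-0.67, adjusted p = 0.293) did not.

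**Figure D2:**
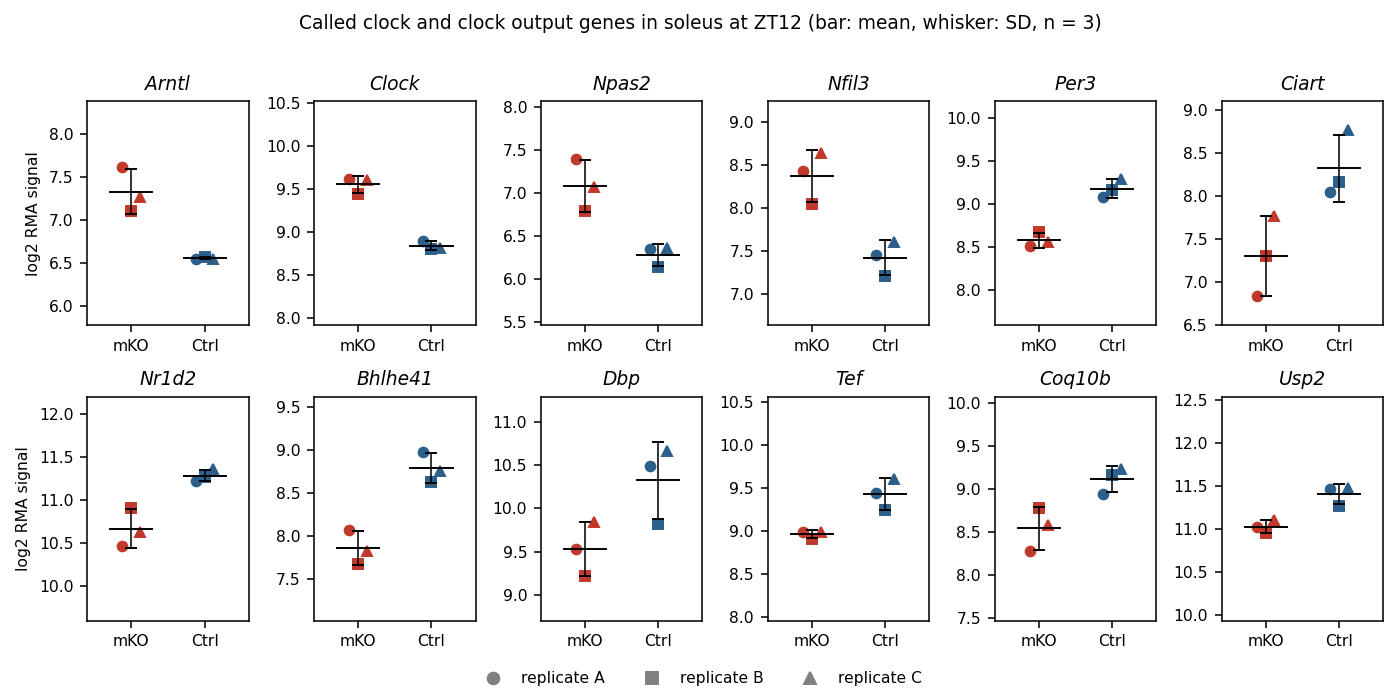
Log2 signal of 12 called clock and clock output genes in each soleus array at ZT12, with mKO (red) left of Ctrl (blue), replicates by symbol, and the mean and SD of 3 arrays. Every panel spans the same height in log2 units. The groups are apart in 11 of the panels, and in Dbp the highest mKO array (9.84) lies just above the lowest Ctrl array (9.81).

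Among the outputs of the clock, Nfil3 was higher in mKO, and the activators that compete with it were lower where called. Nfil3, a repressor at D-boxes that is itself repressed by REV-ERB, had 8.43, 8.05 and 8.64 in mKO and 7.46, 7.21 and 7.61 in Ctrl, a rise of 0.95 ± 0.18 (adjusted p = 0.00376). Dbp, an activator at D-boxes, had 9.53, 9.22 and 9.84 in mKO and 10.49, 9.81 and 10.67 in Ctrl, a difference of -0.79 ± 0.19 (adjusted p = 0.0295), with overlapping arrays. Tef, an activator of the same family, had 8.99, 8.90 and 8.99 in mKO and 9.44, 9.24 and 9.61 in Ctrl, a difference of -0.47 ± 0.09 (adjusted p = 0.00491). Hlf, the third of these factors, had a difference of -0.50 and was not called (adjusted p = 0.19). Coq10b, a coenzyme Q binding protein of mitochondria, had 8.28, 8.78 and 8.58 in mKO and 8.94, 9.16 and 9.23 in Ctrl (-0.57 ± 0.12, adjusted p = 0.0148). Usp2, a deubiquitinase, had 11.02, 10.95 and 11.10 in mKO and 11.46, 11.27 and 11.48 in Ctrl (-0.38 ± 0.09, adjusted p = 0.0482). With the replicate letter as a block, the Usp2 call was lost (-0.38, adjusted p = 0.0528). Of 14 measured output genes, 1 was called higher and 4 lower, with a median difference of -0.21. The rest were not called, from Tspan4 at -0.23 (adjusted p = 0.626), Lonrf3 at -0.20 (adjusted p = 0.923), Tsc22d3 at -0.18 (adjusted p = 0.88) and Nampt at -0.16 (adjusted p = 0.817) to Leo1 at 0.26 (adjusted p = 0.657), Tfrc at 0.44 (adjusted p = 0.313) and Pdk4, the pyruvate dehydrogenase kinase of fasting, at 0.59 (adjusted p = 0.182). Wee1, a kinase of the cell cycle, was at -0.31 (adjusted p = 0.691).

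Several of these output calls were also lost when 1 array was left out. The Nfil3 call was lost without mKO replicate C (0.81, adjusted p = 0.0554) and the Tef call without Ctrl replicate C (-0.38, adjusted p = 0.0886). The Dbp call was lost without mKO replicate A (-0.79, adjusted p = 0.12), mKO replicate B (-0.64, adjusted p = 0.235), Ctrl replicate A (-0.71, adjusted p = 0.147) and Ctrl replicate C (-0.62, adjusted p = 0.306). The Coq10b call was lost without mKO replicate A (-0.44, adjusted p = 0.196), Ctrl replicate B (-0.54, adjusted p = 0.0855) and Ctrl replicate C (-0.51, adjusted p = 0.134), and the Usp2 call without each array but Ctrl replicate B, at adjusted p values from 0.0706 without mKO replicate C to 0.262 without Ctrl replicate C. Among 10 measured genes of clock protein turnover, Csnk1e, the casein kinase that marks PER proteins for decay, was called lower along with Usp2. Csnk1e had 9.91, 9.71 and 9.82 in mKO and 10.21, 10.09 and 10.17 in Ctrl (-0.35 ± 0.08, adjusted p = 0.0267), a call lost with the replicate letter as a block (-0.35, adjusted p = 0.0551) and without mKO replicate B, mKO replicate C, Ctrl replicate A or Ctrl replicate C (adjusted p from 0.0887 to 0.181). In the fit of only the 6 arrays, the calls of Nfil3 (adjusted p = 0.0857), Tef (adjusted p = 0.306), Coq10b (adjusted p = 0.341), Usp2 (adjusted p = 0.42), Csnk1e (adjusted p = 0.48) and Dbp (adjusted p = 0.515) were lost. The Coq10b call held with mKO replicate A alone against Ctrl (-0.83, adjusted p = 0.0113), and those of Nfil3 (adjusted p = 0.0955), Tef (-0.44, adjusted p = 0.293), Dbp (-0.79, adjusted p = 0.367), Usp2 (-0.39, adjusted p = 0.465) and Csnk1e (-0.25, adjusted p = 0.781) were lost.

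The hour of ZT12 lies at an extreme of the daily course of many of these genes in Ctrl soleus. Among the 6 times, ZT12 held the lowest Ctrl mean of Arntl and Clock and the highest Ctrl mean of Per1, Per2, Per3, Cry2, Nr1d2, Tef, Hlf, Usp2 and Coq10b. The distance of the ZT12 mean from the mean over the 6 times was -0.571 log2 units in mKO and -1.255 in Ctrl for Arntl, and -0.195 in mKO and -0.352 in Ctrl for Clock. For Per3 it was 0.975 in mKO and 1.0 in Ctrl. Nr1d2 went the other way, with 0.703 in mKO and 0.50 in Ctrl, so that its ZT12 mean stood farther above its daily mean in mKO. These distances are descriptions and were not tested.

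The promoters of 5 called genes whose windows hold an element of the clock proteins named above are shown, to place these elements beside the values. The windows run from 250 bases before to 50 bases after the annotated start of transcription (RefSeq, GRCm38.p6), are written 5′ to 3′ on the strand of the gene, and have the matched letters in capitals. The strings searched on both strands were CACGTG for the E-box, TTATGTAA or TTACGTAA for the D-box and TAGGTCA for the ROR element, and none of them is contained in another. In Arntl and Nfil3, both higher in mKO, the capitals mark the ROR element (in Nfil3 it lies on the opposite strand). In Ciart and Ppp1r3c they mark E-boxes, of which Ciart has 3, and in Per3 a pair of D-boxes. Elements were also found in windows of Tef and Bhlhe41 (E-box) and of Coq10b (E-box and D-box), which are not shown. None of the strings was found in the windows of Clock, Npas2, Nr1d2, Dbp and Usp2, or in the other window of Arntl, which says only that these letters are not in those windows.
Arntl, chr7:113207261-113207560, plus strand: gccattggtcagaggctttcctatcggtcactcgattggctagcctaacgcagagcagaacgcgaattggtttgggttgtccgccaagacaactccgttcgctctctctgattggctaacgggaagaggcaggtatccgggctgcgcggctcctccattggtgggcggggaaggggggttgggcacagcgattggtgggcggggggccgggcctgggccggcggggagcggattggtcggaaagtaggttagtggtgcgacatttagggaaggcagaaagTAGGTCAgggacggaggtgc
Nfil3, chr13:52980990-52981289, minus strand: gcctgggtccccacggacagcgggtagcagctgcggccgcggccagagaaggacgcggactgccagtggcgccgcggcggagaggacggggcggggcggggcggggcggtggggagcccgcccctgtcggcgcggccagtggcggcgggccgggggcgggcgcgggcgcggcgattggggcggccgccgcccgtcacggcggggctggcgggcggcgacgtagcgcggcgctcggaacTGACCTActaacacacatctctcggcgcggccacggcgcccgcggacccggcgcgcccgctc
Ciart, chr3:95882179-95882478, minus strand: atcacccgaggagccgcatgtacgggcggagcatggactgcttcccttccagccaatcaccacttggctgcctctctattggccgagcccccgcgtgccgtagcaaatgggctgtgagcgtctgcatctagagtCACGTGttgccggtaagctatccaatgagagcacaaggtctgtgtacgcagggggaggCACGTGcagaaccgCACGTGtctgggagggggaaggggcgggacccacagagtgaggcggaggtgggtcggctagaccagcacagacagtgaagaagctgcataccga
Per3, chr4:151044616-151044915, minus strand: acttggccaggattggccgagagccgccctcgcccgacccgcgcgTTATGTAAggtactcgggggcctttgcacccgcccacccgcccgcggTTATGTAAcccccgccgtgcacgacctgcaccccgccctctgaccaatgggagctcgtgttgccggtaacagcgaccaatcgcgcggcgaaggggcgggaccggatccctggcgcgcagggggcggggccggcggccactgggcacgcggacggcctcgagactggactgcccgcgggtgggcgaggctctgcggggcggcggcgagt
Ppp1r3c, chr19:36736555-36736854, minus strand: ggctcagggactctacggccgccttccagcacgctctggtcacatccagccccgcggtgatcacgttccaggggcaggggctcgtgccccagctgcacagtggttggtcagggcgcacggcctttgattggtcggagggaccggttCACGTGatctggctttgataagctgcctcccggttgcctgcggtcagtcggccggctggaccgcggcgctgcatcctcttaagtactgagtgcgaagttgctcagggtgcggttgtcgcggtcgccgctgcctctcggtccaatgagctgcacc
Of the 152 called genes, 130 had a window in the table, and 21 of them (16.2%) held an E-box, 9 of 63 higher and 12 of 67 lower genes. Over all 27025 genes with a window, 8.09% held one, as did 7.15% of all 32851 windows. A D-box was found in 4 of the 130 (3.08%), all of them lower in mKO, against 1.23% of the 27025 genes. A ROR element was found in 3 of the 130 (2.31%), against 2.97% of the 27025 genes. Of these 3, Arntl and Nfil3 were higher in mKO and Amy1 was lower. These shares describe the letters of short windows and were not tested.

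Beyond the clock, the largest rise was that of Cdkn1a, with 11.08, 10.73 and 11.25 in mKO and 8.98, 8.48 and 8.68 in Ctrl. The lowest mKO array exceeded the highest Ctrl array by far, and the difference of 2.31 ± 0.19 log2 units is 4.95-fold (adjusted p = 9.77e-09). It was 1 of 21 measured genes of the cell cycle and p53 list and 1 of 19 glucocorticoid-responsive genes, and in either list no other member was called (median differences 0.04 and -0.07). Kcng4, a modulatory subunit of voltage-gated potassium channels, had 8.02, 8.07 and 8.39 in mKO and 6.74, 6.19 and 6.90 in Ctrl (1.55 ± 0.15, adjusted p = 1.92e-07). Mrln, which encodes myoregulin, a micropeptide that inhibits the calcium pump of the sarcoplasmic reticulum, had 9.77, 9.59 and 9.88 in mKO and 8.32, 8.20 and 8.46 in Ctrl (1.42 ± 0.13, adjusted p = 1.91e-08). It was the only called gene among 24 measured genes of calcium handling, whose median difference was 0.09 and of which 6 had all mKO arrays above all Ctrl arrays, where 5.47% of all genes did. Lrrc30, a leucine-rich repeat gene, had 10.50, 10.30 and 10.38 in mKO and 9.20, 8.65 and 9.31 in Ctrl (1.34 ± 0.12, adjusted p = 1.91e-08).

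Slc1a1 and Fgf11 followed in size. Slc1a1, a glutamate transporter, had 9.07, 8.46 and 8.77 in mKO and 7.52, 7.68 and 7.36 in Ctrl (1.25 ± 0.19, adjusted p = 0.000184). Fgf11, a fibroblast growth factor homologous factor, rose by 1.10 ± 0.15 (adjusted p = 4.45e-05), the secreted glycoprotein Olfm1 by 1.03 ± 0.12 (adjusted p = 4.78e-06), and Tmem171 by 1.03 ± 0.16 (adjusted p = 0.000359). Agt, which encodes angiotensinogen, rose by 0.97 (adjusted p = 0.000162), Pla2g7, a phospholipase that cleaves platelet-activating factor, by 0.96 (adjusted p = 0.000551), and the solute carrier Slc41a3 by 0.88 (adjusted p = 1.49e-06). Actc1, the cardiac alpha actin, had 10.91, 10.75 and 11.52 in mKO and 10.15, 10.06 and 10.19 in Ctrl (0.93 ± 0.18, adjusted p = 0.0049), and its call was lost without mKO replicate C (0.70, adjusted p = 0.0896).

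The largest fall was that of Mylk4, with 8.97, 9.996 and 9.48 in mKO and 11.15, 11.01 and 11.65 in Ctrl. The mKO arrays spread over more than 1 log2 unit and still lay wholly below Ctrl, by -1.79 ± 0.27 (3.45-fold, adjusted p = 0.000174). Mettl21e, a lysine methyltransferase, had 4.77, 5.06 and 4.98 in mKO and 6.25, 5.86 and 6.21 in Ctrl (-1.17 ± 0.22, adjusted p = 0.00346). Ctxn3 had 7.72, 7.68 and 7.90 in mKO and 8.87, 8.76 and 8.99 in Ctrl (-1.11 ± 0.14, adjusted p = 9.57e-06). Dkk2, a secreted modulator of Wnt signalling, had 7.91, 7.70 and 7.55 in mKO and 8.98, 8.85 and 8.50 in Ctrl (-1.06 ± 0.19, adjusted p = 0.00152). Slc4a4, a sodium bicarbonate cotransporter, differed by -0.98 ± 0.11 (adjusted p = 1.61e-06), and Scn2a, a sodium channel, by -0.88 ± 0.14 (adjusted p = 0.000249). Aspa, an aspartoacylase, differed by -0.97 ± 0.12 (adjusted p = 1.01e-05), and Amy1, an amylase, by -0.95 ± 0.21 (adjusted p = 0.0203). Asb15, a ubiquitin ligase adaptor of muscle, fell by 0.94 (adjusted p = 1.49e-06) and Mid1ip1, a partner of acetyl-CoA carboxylase, by 0.86 (adjusted p = 0.000359). Clec3a, a C-type lectin, fell by 0.98 (adjusted p = 0.0288) and Adamts8, a secreted metalloprotease, by 0.83 (adjusted p = 0.0361).

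The calls of Amy1, Clec3a and Adamts8 were lost when any 1 of several arrays was left out, for Clec3a in part with a larger difference. The Amy1 call was lost without mKO replicate B (-0.92, adjusted p = 0.0849), mKO replicate C (-0.80, adjusted p = 0.184), Ctrl replicate A (-0.85, adjusted p = 0.118) and Ctrl replicate B (-0.89, adjusted p = 0.115). The Clec3a call was lost without mKO replicate A (-0.86, adjusted p = 0.205), mKO replicate B (-1.02, adjusted p = 0.0686), mKO replicate C (-1.07, adjusted p = 0.052) and Ctrl replicate C (-0.70, adjusted p = 0.344). The Adamts8 call was lost without mKO replicate A (-0.76, adjusted p = 0.195), mKO replicate C (-0.79, adjusted p = 0.166), Ctrl replicate B (-0.78, adjusted p = 0.17) and Ctrl replicate C (-0.75, adjusted p = 0.22). With mKO replicate A alone against Ctrl, the calls of these 3 genes were lost, as were those of Actc1 (0.78, adjusted p = 0.285), Pla2g7 (0.86, adjusted p = 0.158), Pnpla3 (0.84, adjusted p = 0.354), Mettl21e (-1.33, adjusted p = 0.0823), Dkk2 (-0.87, adjusted p = 0.314) and Mid1ip1 (-0.82, adjusted p = 0.0775), and the other genes named since Cdkn1a kept theirs.

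**Figure D3:**
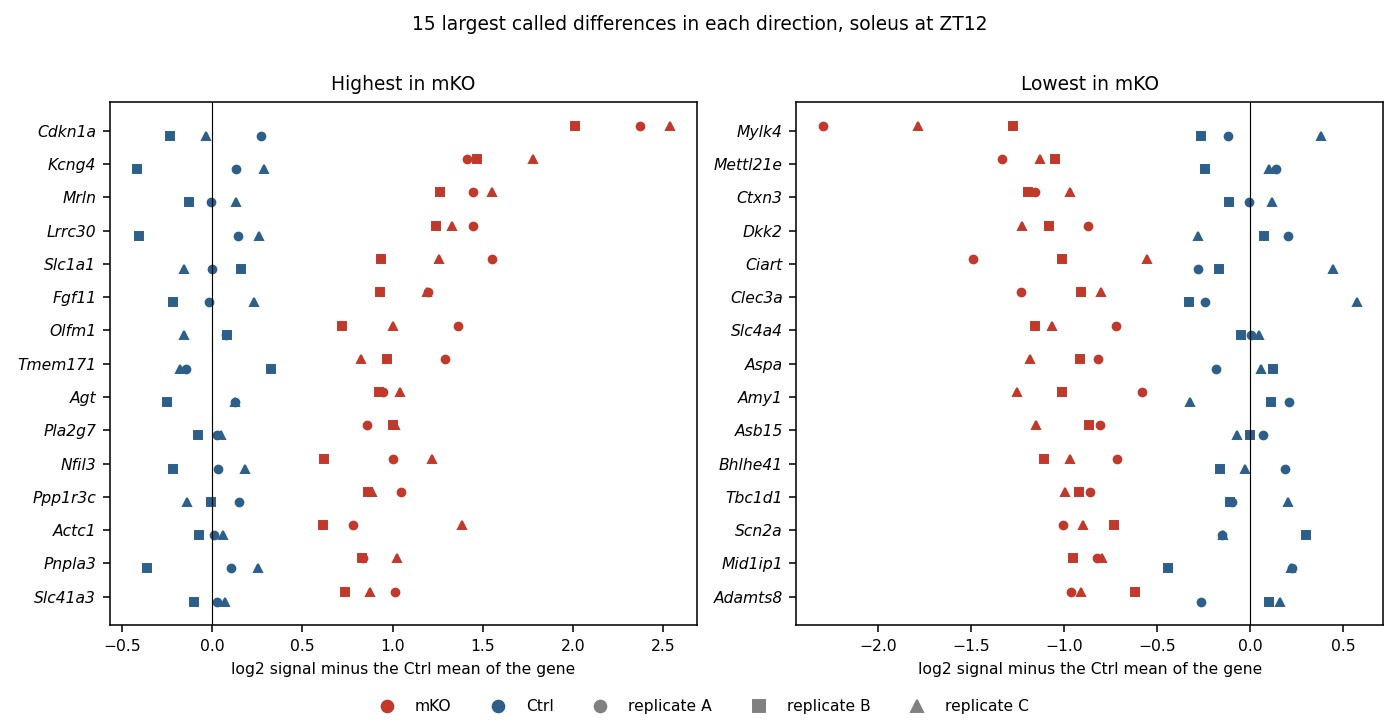
The 15 largest called rises (left panel) and falls (right panel) among genes whose groups do not overlap, as each array's log2 signal minus the Ctrl mean of the gene, with mKO in red above Ctrl in blue and replicates by symbol. Cdkn1a and Mylk4 reach farthest from 0, and Ciart and Clec3a have the widest spread among the Ctrl arrays of the falls.

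Some genes of glucose use were called, in both directions, where 0.751% of all genes were called. Ppp1r3c, which brings protein phosphatase 1 to glycogen and favours glycogen synthesis, had 10.80, 10.62 and 10.64 in mKO and 9.90, 9.75 and 9.61 in Ctrl, a rise of 0.93 ± 0.12 (adjusted p = 1.4e-05). Tbc1d1, which holds back the glucose transporter GLUT4 until it is phosphorylated, had 7.63, 7.57 and 7.49 in mKO and 8.39, 8.38 and 8.69 in Ctrl, a difference of -0.92 ± 0.10 (adjusted p = 1.61e-06). These were the 2 called genes of 22 measured in glucose uptake and glycogen, whose median difference was -0.08. In glycolysis, 1 of 14 genes was called, the lactate and pyruvate transporter Slc16a1 (-0.46 ± 0.11, adjusted p = 0.0415), and its call was lost with the replicate letter as a block (-0.46, adjusted p = 0.11) and without any array but mKO replicate B (adjusted p from 0.0521 to 0.253). None of 12 genes of the pyruvate dehydrogenase complex and its regulators passed limma's threshold, and 3 had an unadjusted p under 0.05. Among all 20239 genes, 1482 had an unadjusted limma p under 0.05 at ZT12. In insulin signalling, 2 of 20 genes were called. Irs1, the insulin receptor substrate, had 9.17, 9.10 and 8.91 in mKO and 8.50, 8.26 and 8.40 in Ctrl (0.68 ± 0.15, adjusted p = 0.0149), and Pik3ca, a catalytic subunit of phosphoinositide 3-kinase, differed by 0.40 ± 0.09 (adjusted p = 0.0289). The Irs1 call was lost without mKO replicate A, mKO replicate B, Ctrl replicate B or Ctrl replicate C (adjusted p from 0.0589 to 0.12), and the Pik3ca call without each array but mKO replicate C (adjusted p from 0.0507 to 0.177).

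Lipid and amino acid genes gave 3 calls, where 0.751% of all genes were called. Dgat2, which completes the synthesis of triglycerides, had 10.58, 10.85 and 10.83 in mKO and 11.67, 11.42 and 11.64 in Ctrl, a difference of -0.82 ± 0.13 (adjusted p = 0.000189). Pnpla3, an acyl hydrolase of lipid droplets, had 7.86, 7.85 and 8.05 in mKO and 7.13, 6.66 and 7.27 in Ctrl, a difference of 0.90 ± 0.18 (adjusted p = 0.00712), and its call was lost without mKO replicate C (0.83, adjusted p = 0.0598) and without Ctrl replicate B (0.72, adjusted p = 0.113). These were the called members of 23 lipid synthesis and storage genes (median -0.02). Gpt, the alanine aminotransferase that joins amino acid and glucose metabolism, had 7.97, 8.14 and 7.82 in mKO and 7.46, 7.43 and 7.24 in Ctrl (0.60 ± 0.12, adjusted p = 0.00708), and was the called member of 15 amino acid catabolism genes (median -0.04). Its call was lost without mKO replicate B (0.52, adjusted p = 0.0736) and without Ctrl replicate C (0.53, adjusted p = 0.0826). None of 23 genes of fatty acid uptake and oxidation (median 0.03) and none of 23 respiratory chain and citrate cycle genes (median 0.08) was called by limma. None of either list had an unadjusted p under 0.05, where 1482 of all 20239 genes did.

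The contractile apparatus and the synapse showed changes of single components in both directions. In the fast fibre list, 17 genes were measured, Mylk4 was called lower and Mylpf, the fast regulatory light chain, was called higher, with 11.38, 11.29 and 11.22 in mKO and 10.79, 10.63 and 10.92 in Ctrl (0.52 ± 0.12, adjusted p = 0.0255). The Mylpf call was lost without each array but Ctrl replicate C (adjusted p from 0.0536 to 0.199). Myh4, whose uneven levels are given above, differed by 2.001 ± 1.04 and was not called (adjusted p = 0.735), and neither were Pvalb, the calcium buffer parvalbumin (0.57, adjusted p = 0.946), and Actn3, the alpha actinin of fast fibres (0.05, adjusted p = 0.999), which among the mKO arrays were lowest in replicate A and highest in replicate B. None of the 15 slow fibre genes was called by limma (median -0.06), and 6 had an unadjusted p under 0.05. Of all 20239 genes, 1482 had such a p, against which these counts are to be read. Tcap, a cap of titin at the Z-disc, had 11.46, 11.21 and 11.09 in mKO and 12.03, 11.92 and 12.06 in Ctrl, a difference of -0.75 ± 0.10 (adjusted p = 5.26e-05). Of 19 genes of the neuromuscular junction and denervation, a pair of acetylcholine receptor subunits moved in opposite directions. Chrnb1 had 8.89, 8.68 and 8.999 in mKO and 8.12, 8.15 and 8.16 in Ctrl (0.71 ± 0.14, adjusted p = 0.00456), a call lost without mKO replicate C (0.64, adjusted p = 0.052). Chrna1 had 9.45, 9.36 and 9.43 in mKO and 10.02, 9.88 and 9.99 in Ctrl (-0.55 ± 0.11, adjusted p = 0.00716). No gene was called by limma in the lists of atrophy and autophagy (19 measured), heat shock and temperature (15) and immediate early genes (18), in which 2, 0 and 2 genes had an unadjusted p under 0.05. With mKO replicate A alone against Ctrl, the calls of Mylpf (0.60, adjusted p = 0.236), Tcap (-0.54, adjusted p = 0.124), Chrnb1 (0.75, adjusted p = 0.145) and Chrna1 (-0.52, adjusted p = 0.354) were lost. So were, among the metabolic genes above, those of Slc16a1 (-0.50, adjusted p = 0.354), Irs1 (0.79, adjusted p = 0.158), Pik3ca (0.46, adjusted p = 0.197) and Gpt (0.60, adjusted p = 0.237).

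Few markers of other cell types passed the threshold, which 0.751% of all genes passed. None was called in the lists for liver (9 measured), erythroid cells (5), macrophages (10), adipocytes (8), smooth muscle (7), fibroblasts and tendon (12), Schwann cells (5), endothelium (10), and lymphocytes and granulocytes (11). In the same order, limma's unadjusted p was under 0.05 for 0, 3, 1, 0, 2, 1, 2, 1 and 1 of them. It was under 0.05 for 1482 of all 20239 genes. The 5 erythroid markers were all higher in mKO in their means, with a mean level per array of 6.28 to 6.64 in mKO and 6.04 to 6.15 in Ctrl. In 3 of them all mKO arrays lay above all Ctrl arrays, where 5.47% of all genes did. The widest gap was that of Hbb-b1, a haemoglobin chain, with 6.97, 6.04 and 6.65 in mKO and 5.41, 5.74 and 5.70 in Ctrl (0.94, adjusted p = 0.291). All 8 adipocyte markers were lower in mKO in their means, with a median difference of -0.116, no gap between the groups in any, and a mean level per array of 8.53 to 8.97 in mKO and 8.73 to 8.92 in Ctrl. Of the macrophage markers 9 of 10 were lower in mKO in their means, with a median difference of -0.155. In 1 all mKO arrays lay below all Ctrl arrays, where 5.37% of all genes did. The mean level of the macrophage markers was 6.8 to 7.2 in mKO and 7.04 to 7.28 in Ctrl. Of the fibroblast and tendon markers 9 of 12 were lower in mKO in their means (median -0.071), with a mean level of 8.9 to 9.49 in mKO and 9.11 to 9.69 in Ctrl. Of the endothelial markers 8 of 10 were higher in mKO in their means (median 0.059), with a mean level of 9.07 to 9.22 in mKO and 8.93 to 9.23 in Ctrl. The part of these shifts in the results was not tested. All 7 satellite cell markers were higher in mKO in their means (median 0.098), with a mean level of 7.23 to 7.35 in mKO and 6.97 to 7.28 in Ctrl. Among them Myod1, a myogenic factor that fibres also express, was called higher. Myod1 had 8.65, 8.33 and 8.21 in mKO and 7.82, 7.22 and 7.93 in Ctrl (0.74 ± 0.15, adjusted p = 0.00715). Its call was lost without mKO replicate A (0.61, adjusted p = 0.117) and without Ctrl replicate B (0.52, adjusted p = 0.133). It was called with mKO replicate A alone against Ctrl (0.99, adjusted p = 0.0254). Among 10 markers of muscle fibres, Tcap was the called gene, and the mean level of the list was 13.1 to 13.2 in mKO and 13.2 to 13.3 in Ctrl.

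The differences at ZT12 were mostly present at the other times as well. The 30 soleus arrays of the other 5 times were not used to call the 152 genes, except that they shared the estimate of the spread. In them, 148 of the 152 had the same sign in the mean difference over those times, where 62.3% of all genes did, and 139 were called in the same direction, where 5.8% of all genes were called in either direction. None was called in the opposite direction. The median size, taken in the ZT12 direction, was 0.61 at ZT12 and 0.43 over the other times, and the genes were chosen by their values at ZT12. Cdkn1a differed by 2.31 at ZT12 and by 2.25 over the other times (adjusted p = 6.68e-18), and Mylk4 by -1.79 and -2.44 (adjusted p = 5.23e-15). Clock differed by 0.71 and 0.52 (adjusted p = 8.33e-13). Among the 13 genes called at ZT12 and not over the other times were Arntl (-0.05, adjusted p = 0.877), Clec3a (-0.25, adjusted p = 0.217) and Hoxd13, a homeobox gene that differed by 0.52 ± 0.12 at ZT12 (adjusted p = 0.0189) and by -0.03 over the other times (adjusted p = 0.919). The Hoxd13 call was lost with the replicate letter as a block (0.52, adjusted p = 0.0826). It was also lost without mKO replicate A, mKO replicate B, Ctrl replicate B or Ctrl replicate C (adjusted p from 0.0717 to 0.192). With mKO replicate A alone against Ctrl, the call held (0.70).

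When the difference at ZT12 was tested against the mean difference of the other times, 1 gene of 20239 (0.00494%) was called, Lrrc30. An unadjusted p under 0.05 was found for 608 genes, which is a share of less than 0.05. In Lrrc30 the difference was 1.34 at ZT12 and 0.49 over the other times, a gap of 0.85 ± 0.13 (limma adjusted p = 0.00614). From ZT0 to ZT20 its means were 10.71, 10.38, 10.27, 10.39, 10.63 and 10.60 in mKO and 10.56, 9.94, 9.30, 9.05, 9.93 and 10.41 in Ctrl. The range over the day was thus 0.436 in mKO and 1.505 in Ctrl, with the Ctrl trough at ZT12. The call was lost without mKO replicate A (0.79, adjusted p = 0.107), without Ctrl replicate B (0.65, adjusted p = 0.0646), with mKO replicate A alone against Ctrl (0.96, adjusted p = 0.0969) and with the identification series as a term (0.78, adjusted p = 0.0889). The series bears on this test because ZT12 held no BM3 animals, while 23 of the 30 arrays of the other times did.

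Next in order of p were genes that did not pass the threshold. Ppp1r3c had a gap of 0.70 ± 0.13 (adjusted p = 0.0808). Its means from ZT0 to ZT20 were 11.45, 11.10, 10.56, 10.68, 11.56 and 11.94 in mKO and 11.69, 11.04, 10.14, 9.75, 11.03 and 11.57 in Ctrl, so that the mKO mean lay below the Ctrl mean at ZT0 (-0.23) and above it at the 5 other times. Arntl had a gap of 0.82 ± 0.16 (adjusted p = 0.128), with differences of -0.67 at ZT0, -0.51 at ZT4, 0.40 at ZT8, 0.78 at ZT12, 0.55 at ZT16 and 0.01 at ZT20. The probe set annotated to the microRNA gene Mir697 had a gap of 0.60 (adjusted p = 0.462), the lectin receptor gene Clec12a -0.43 (adjusted p = 0.555) and Hoxd13 0.55 (adjusted p = 0.555). At ZT12 itself neither Mir697 (0.48, adjusted p = 0.0586) nor Clec12a (-0.36, adjusted p = 0.0533) was called, and Mir697 passed without mKO replicate A (0.57, adjusted p = 0.0365), without Ctrl replicate C (0.57, adjusted p = 0.0327) and with the replicate letter as a block within ZT12 (0.48, adjusted p = 0.0436).

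**Figure D4:**
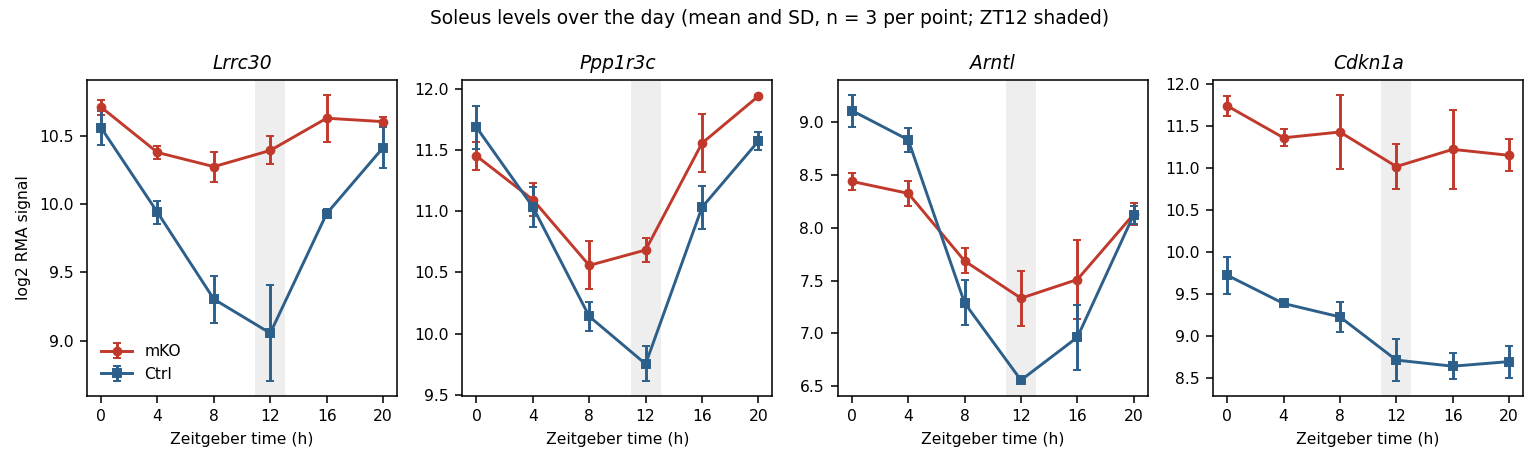
Mean log2 signal in soleus at 6 Zeitgeber times for mKO (red circles) and Ctrl (blue squares), with the SD of 3 arrays and ZT12 shaded. Ctrl reaches its lowest mean at ZT12 in Lrrc30 (9.05), Ppp1r3c (9.75) and Arntl (6.56), where the mKO means are 10.39, 10.68 and 7.33, while Cdkn1a is higher in mKO at every time.

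In the tibialis anterior of the same animals, several genotype differences at ZT12 had another size. Tested within animals, 26 genes (0.128%) differed between the muscles in their genotype difference, 18 of them with the larger value in soleus and 8 with the smaller. Of these, 19 were called in tibialis anterior and not in soleus, 3 in soleus and not in tibialis anterior, and 4 in both. The 3 were Kcng4, Scn2a and Chrna1. Kcng4 had 8.36, 8.50 and 8.64 in mKO tibialis anterior and 8.41, 8.34 and 8.74 in Ctrl tibialis anterior, so that the genotype difference was 1.55 in soleus and 0.01 in tibialis anterior, a gap of 1.54 ± 0.19 (adjusted p = 5.66e-05). The levels of mKO soleus, from 8.02 to 8.39, lay next to those of tibialis anterior in either genotype. Scn2a differed by -0.88 in soleus and -0.14 in tibialis anterior, a gap of -0.74 ± 0.14 (adjusted p = 0.00776). The gap was not called without mKO replicate A (-0.70, adjusted p = 0.0829) or without Ctrl replicate B (-0.59, adjusted p = 0.184). Scn2a had 5.29, 5.44 and 5.29 in mKO tibialis anterior and 5.52, 5.49 and 5.44 in Ctrl tibialis anterior, all below its mKO soleus mean of 5.97. Whether a fall could show at such low levels was not tested. Chrna1 differed by -0.55 in soleus and 0.18 in tibialis anterior, a gap of -0.73 ± 0.13 (adjusted p = 0.00562) that was not called with the replicate letter as a block (adjusted p = 0.107).

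The genes with the smallest p in this test included 4 that were called in tibialis anterior and not in soleus. Car3, a carbonic anhydrase that muscle and fat hold in large amounts, had 13.86, 13.80 and 13.73 in mKO soleus and 13.94, 13.81 and 13.85 in Ctrl soleus. In tibialis anterior it had 12.03, 12.24 and 11.66 in mKO and 13.69, 13.78 and 13.74 in Ctrl. Its genotype difference was -0.07 in soleus and -1.76 in tibialis anterior, a gap of 1.69 ± 0.15 (adjusted p = 6.66e-08), the smallest p of this test. Mical2, an actin-oxidising enzyme, differed by 0.18 in soleus and -1.02 in tibialis anterior (gap 1.204 ± 0.15, adjusted p = 5.66e-05). Aebp1, a protein of the extracellular matrix, differed by -0.30 and -1.49 (gap 1.18 ± 0.17, adjusted p = 0.000625), and Nkain1, a partner of the sodium pump, by -0.49 and -1.60 (gap 1.11 ± 0.16, adjusted p = 0.000625). Nkain1 at ZT12 in soleus was not called in itself (adjusted p = 0.0745) and passed with the replicate letter as a block (-0.49, adjusted p = 0.0209) and without Ctrl replicate B (-0.58, adjusted p = 0.0472).

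Among the genes called in both muscles was Prss55, a serine protease. It had 6.75, 6.88 and 6.87 in mKO soleus and 6.03, 6.07 and 5.86 in Ctrl soleus, a rise of 0.85 ± 0.15 (adjusted p = 0.00138). With mKO replicate A alone against Ctrl, its soleus call was lost (0.77). In tibialis anterior, Prss55 had 9.15, 8.52 and 8.92 in mKO and 6.28, 6.12 and 6.41 in Ctrl. The rise in soleus was thus smaller, by a gap of -1.74 ± 0.24 (adjusted p = 0.00017). Nr1d2 differed by -0.62 in soleus and -1.31 in tibialis anterior, a gap of 0.69 ± 0.13 (adjusted p = 0.00815), which was not called without mKO replicate A (0.68, adjusted p = 0.0743), without mKO replicate B (0.68, adjusted p = 0.0606) or without Ctrl replicate B (0.68, adjusted p = 0.0714). Lrrc30 differed by 1.34 in soleus and 0.66 in tibialis anterior, a gap of 0.68 ± 0.13 (adjusted p = 0.00815), which was not called with the replicate letter as a block (adjusted p = 0.107) or without mKO replicate A (0.68, adjusted p = 0.0637), mKO replicate B (0.61, adjusted p = 0.116) or Ctrl replicate B (0.49, adjusted p = 0.198). The count of 26 genes was 17 without the animal of mKO replicate A, 40 without that of mKO replicate C, 13 without that of Ctrl replicate B and 5 with mKO replicate A alone against Ctrl.

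**Figure D5:**
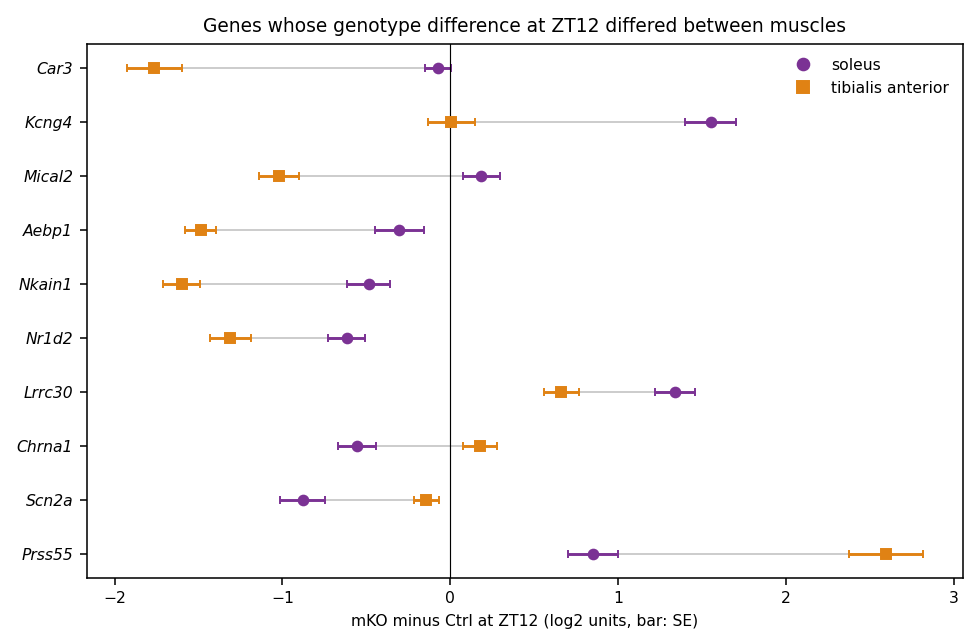
Difference of mKO minus Ctrl at ZT12 (log2 units, bars show the SE) in soleus (purple circles) and in tibialis anterior (orange squares) for 10 genes whose genotype difference was called as unequal between the muscles. Car3 lies near 0 in soleus and at -1.76 in tibialis anterior, and Kcng4 at 1.55 in soleus and 0.01 in tibialis anterior.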

How the data were processed

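RNA of soleus and tibialis anterior from 36 mice was measured on 72 arrays. Per the submitters' processing notes, the deposited log2 values were made with RMA, with no version named. No value was rescaled or filtered. Of 21225 probe sets, 20239 had a gene symbol, 0 had several and 986 had none and were left out. Groups, replicate letters and identification series were taken from the labels.

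Differences were tested with limma (version 3.58.1, under R 4.3.3) in a fit of the 36 soleus arrays with 1 mean for each of 12 groups, so that the spread of all groups was shared, with Benjamini-Hochberg adjustment over all 20239 genes and a threshold of 0.05. The same fit gave the mean difference of the other 5 times and the test of ZT12 against it. The muscles were compared on differences within the animals. Precision is limited by the number of arrays. The fits were tested on simulated data first.

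Same-letter mKO and Ctrl arrays deviated together at ZT12, with r from 0.22 to 0.24 over genes in all 3 pairs, so blocked values are given where they change a call. Over all 18 pairs of the 6 times, r ran from -0.28 to 0.24.

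The 32 gene lists (433 of 466 genes measured) and the genes named were chosen with earlier results of these data known. Named are all members of the lists of clock activators, clock repressors and clock outputs, the 15 largest called changes in each direction without overlap, the 6 smallest p of each further test, and up to 2 called members per direction of each other list. Genes with a model name only (3 of the 152) are not named. Riok2, Myh7, Myh4, Pvalb, Actn3 and Hbb-b1 were named outside this rule after their values were seen. Alternatives comprised other sets of arrays, blocks, filters, centring, variance estimates and array weights. Promoter windows came from RefSeq (GRCm38.p6).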

Additional observations from a re-analysis of the deposited data

Results flagged for a closer look

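The genotype difference of Lrrc30 in soleus was larger at ZT12 than over the other 5 times by 0.85 log2 units, by a test of the difference itself. In 26 genes the genotype difference at ZT12 differed between soleus and tibialis anterior of the same animals, again by a test of the difference. Of these, 10 that are named in the report are given here. The gap, soleus minus tibialis anterior, was 1.69 for Car3, 1.54 for Kcng4, 1.2 for Mical2, 1.18 for Aebp1, 1.11 for Nkain1, 0.69 for Nr1d2 and 0.68 for Lrrc30. It was -1.74 for Prss55, -0.74 for Scn2a and -0.73 for Chrna1. Groups of 3 arrays are too small to look for single outlying arrays.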

How the results depend on the processing

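All 152 called genes kept their sign under every alternative (137 remain when only genes above the median level are tested). Where arrays were left out, the sign was fixed in advance for the 150 genes whose mKO and Ctrl arrays did not overlap. The number of calls depends on the arrays used. With only the 6 soleus arrays of ZT12 there were 19 higher and 16 lower genes, all 35 among the 152, and with the identification series as a further term 10 and 8. Of the 52 named genes called at ZT12, 29 were not called with the 6 arrays, at adjusted p values from 0.0541 for Olfm1 to 0.515 for Dbp. They were the 11 clock and output genes given in the report and Actc1, Adamts8, Amy1, Chrna1, Clec3a, Gpt, Hoxd13, Irs1, Mid1ip1, Mylpf, Myod1, Olfm1, Pik3ca, Pnpla3, Scn2a, Slc16a1, Tcap and Tmem171. With the further term 35 were not called, among them Clock (adjusted p = 0.0567), Lrrc30 (adjusted p = 0.0567) and Bhlhe41 (adjusted p = 0.0809). With mKO replicate A alone against Ctrl, a setting chosen after seeing the data in which that array is assumed to vary like the other groups, there were 38 and 25, with 0 genes for ZT12 against the other times and 5 for soleus against tibialis anterior. Leaving out 1 array gave 48 to 82 higher and 44 to 74 lower genes, 0 to 1 for ZT12 against the other times (0 without mKO replicate A and without Ctrl replicate B) and 13 to 40 for soleus against tibialis anterior. For ZT12 against the other times, the genes above the median level gave 3, trend and robust estimation 2 and array weights 2. For soleus against tibialis anterior, array weights gave 53. With the replicate block there were 73 higher, 70 lower, 1 and 20 genes, and it changed no call of a named gene beyond those given in the report. The other alternatives kept each count within 1.5 times, but some named genes crossed the threshold. For ZT12 against the other times, the 1 gene called with the identification series as a term was another than Lrrc30 (0.78, adjusted p = 0.0889). With the identification series as a term, Csnk1e (-0.33, adjusted p = 0.0555), Slc16a1 (-0.47, adjusted p = 0.052) and Usp2 (-0.40, adjusted p = 0.0555) were not called, nor was the gap of Lrrc30 between the muscles (0.63, adjusted p = 0.0558). With each array centred on its median, Mylpf (0.50, adjusted p = 0.0544), Pik3ca (0.38, adjusted p = 0.0686) and Usp2 (-0.40, adjusted p = 0.0734) were not called and Clec12a was (-0.37, adjusted p = 0.0377). Ciart was not called with trend and robust estimation (-1.02, adjusted p = 0.0731) or with array weights (-0.96, adjusted p = 0.0846). Nkain1 was called with all 72 arrays and no animal block (adjusted p = 0.026), among genes above the median level (adjusted p = 0.0334) and with trend and robust estimation (adjusted p = 0.0448). Between the muscles, the gap of Nr1d2 was not called without the animal block (0.69, adjusted p = 0.0609), and with mKO replicate A alone those of Aebp1, Chrna1, Lrrc30, Nr1d2 and Scn2a were not called (adjusted p from 0.238 to 0.279). Of genes that were not called, Rorb changed sign with the identification series as a term (-0.02, also in the 6 arrays), without mKO replicate B (-0.02), without Ctrl replicate A (-0.04, with 0.08 the highest value without 1 array) and with mKO replicate A alone (-0.08), as did Bhlhe40 in the last setting (0.01). The cause of these shifts was not tested, beyond the fewer arrays or genes that some settings use.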

Other observations

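Further genes called at ZT12 are given here singly. They were chosen after their values were seen, with no list or test behind the choice, and other members of their families were not counted. Asb12, whose protein has a SOCS box, had 11.65, 11.56 and 11.67 in mKO and 10.96, 11.15 and 11.25 in Ctrl (0.51 ± 0.08, limma adjusted p = 0.000556). Also higher were Wsb1, by 0.58 ± 0.12 (adjusted p = 0.00543), Asb2 by 0.46 ± 0.11 (adjusted p = 0.0333) and Spsb4 by 0.41 ± 0.09 (adjusted p = 0.0214), each with all mKO arrays above all Ctrl arrays. Another Asb gene, Asb15, went the other way, as given in the report (-0.94, adjusted p = 1.49e-06).

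Other genes were called lower. Il15, a cytokine that muscle expresses, had 6.78, 6.51 and 6.77 in mKO and 7.38, 7.31 and 7.40 in Ctrl (-0.68 ± 0.13, adjusted p = 0.00262). Lower too were Met, the receptor of hepatocyte growth factor (-0.68 ± 0.11, adjusted p = 0.000427), Cntfr, the receptor of ciliary neurotrophic factor (-0.66 ± 0.15, adjusted p = 0.0189), and Acvr1b, an activin receptor (-0.54 ± 0.12, adjusted p = 0.0122). Nos1, the neuronal nitric oxide synthase that sits at the dystrophin complex of muscle, had 7.32, 6.82 and 7.06 in mKO and 7.94, 7.75 and 7.82 in Ctrl (-0.77 ± 0.15, adjusted p = 0.00411), and Sspn, which encodes sarcospan of that complex, differed by -0.32 ± 0.07 (adjusted p = 0.0133). The arginine transporter Slc7a2 had 8.46, 8.59 and 8.51 in mKO and 9.01, 9.24 and 9.44 in Ctrl (-0.71 ± 0.11, adjusted p = 0.000189). Over the other 5 times, each of these 11 genes (Asb15 aside) was called in the same direction, as were 139 of all 152 genes called at ZT12. The differences ran from -0.90 for Nos1 to 0.49 for Wsb1. For these 11 genes, values with arrays left out are not given.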
